A study of Haematococcus lacustris with 7 samples.

Results

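The amino acid biosynthesis sequences of *H. pluvialis* are the 207 sequences of the deposited annotation table (3.04% of 6812) that list a Gene Ontology (GO) term for the making of an amino acid. A sequence was taken where a term name held the words biosynthetic process together with amino acid or the name of a listed amino acid, and names with phosphatidyl were not counted. The 207 sequences lie in 180 Trinity components, which are the groups of related contigs that the assembler Trinity makes. The RNA came from *H. pluvialis* cultures treated with jasmonic acid (JA) at 25 mg/L for 1, 6 or 24 h, from cultures treated with salicylic acid (SA) at 25 mg/L for 1, 6 or 24 h, and from an untreated control culture (N). All 7 libraries, 1 per condition, were aliquots of a single culture of 1 strain grown to the logarithmic phase. The table holds 1 set of sequences and 0 columns of values per library. Read depth, levels in JA, SA and control, and their error are therefore not analysed here, and each number below is a complete count over the table.

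Plants and green algae make all the amino acids of their proteins. Ammonium enters through glutamine synthetase and glutamate synthase, and the carbon skeletons come from glycolysis, the tricarboxylic acid cycle, the Calvin cycle and the pentose phosphate pathway. The amino acids fall into families by their precursor, and in plants many of the enzymes work in the chloroplast stroma. Aspartate gives rise to lysine, threonine, methionine and isoleucine, chorismate to the aromatic amino acids, and pyruvate to valine and leucine.

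The biosynthetic terms covered the 6 amino acid families unequally. The aspartate family had 61 sequences in 52 components, the glutamate family 45 in 41, and the serine family 45 in 36. Fewer sequences were listed for the aromatic family (26 in 23 components), the branched-chain family (22 in 20) and histidine (19 in 16). A single sequence, comp65198_c0_seq1_24, listed only cellular amino acid biosynthetic process, and it also listed aminoacyl-tRNA ligase activity and protein kinase activities. Terms of 2 families were listed for 12 sequences, 9 of them for the aspartate family with histidine and 3 for the aspartate family with the serine family by the words in the names. Of these 3, 2 are cystathionine beta-lyase sequences of the methionine pathway, which matched serine only through the word homoserine. Without that match the serine family had 43 sequences in 35 components, and 10 sequences had terms of 2 families, 1 of them (comp658254_c0_seq1_4) of the aspartate and serine families.

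In all, 32 biosynthetic terms were used in 224 pairs of sequence and term. Methionine biosynthetic process had the most sequences, 38 in 34 components. It was followed by arginine biosynthetic process with 22, histidine biosynthetic process with 17 and cysteine biosynthetic process from serine with 16. Branched chain family amino acid biosynthetic process had 14 sequences, L-serine biosynthetic process 13, and both aromatic amino acid family biosynthetic process and glutamate biosynthetic process 12. Tryptophan biosynthetic process had 11 sequences, cysteine biosynthetic process 10, threonine biosynthetic process 8, proline biosynthetic process 7 and glutamine biosynthetic process 5. Isoleucine, leucine, and lysine via diaminopimelate had 4 each, and aspartate and lysine without a named route had 3 each. Asparagine, glycine, valine, cysteine via cystathionine and L-methionine from L-homoserine via cystathionine had 2 each. L-phenylalanine, tyrosine, arginine via ornithine, and lysine via aminoadipic acid were on 1 sequence each.

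Some names met the words of the choice without naming the making of an amino acid itself. These were glycine betaine from choline (2 sequences), peptidyl-diphthamide from peptidyl-histidine (2), S-adenosylmethionine (1) and de novo NAD from tryptophan (1). They account for 6 of the 207 sequences, and the other 201 list at least 1 term that names an amino acid or an amino acid family.

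**Figure D1:**
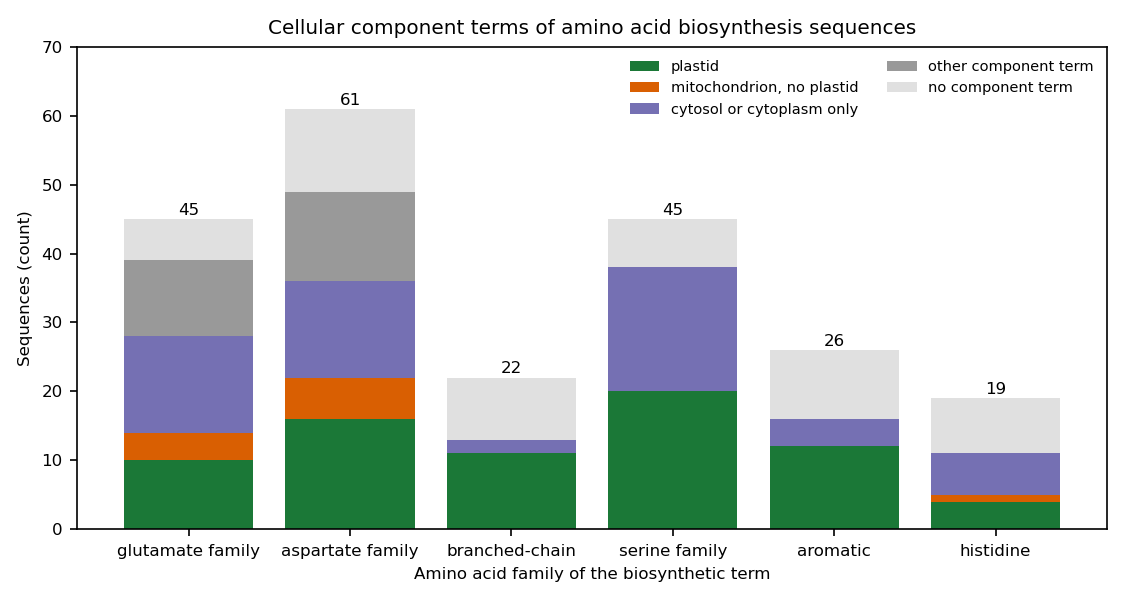
Number of amino acid biosynthesis sequences (vertical axis, count) in each of the 6 amino acid families (horizontal axis), with colours for the cellular component terms that the same sequences list. Plastid terms were on 11 of 22 branched-chain and 12 of 26 aromatic sequences but on 10 of 45 in the glutamate family, and the 12 sequences of 2 families are drawn in both, among them 2 cystathionine beta-lyase sequences drawn under serine through the word homoserine. In the glutamate family, 4 sequences with amyloplast are drawn as other component term, because the words for plastid terms did not match that name.

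The sequences were compared with a list of 70 enzyme steps in 8 pathways, matched by the names of molecular function terms. The function terms and the biosynthetic terms of a sequence both came from Blastp hits through GoPipe. The match between them is therefore not an independent check that the sequences are these enzymes. Of the 207 sequences, 164 (79.2%) listed at least 1 of these steps, and all 207 listed some molecular function term. At least 1 of the sequences was found for 58 of the 70 steps. For 29 of these 58 steps all the sequences lay in 1 component, and for 22 there was a single sequence. Steps with 5 or more components numbered 7. Whether several components are different genes or pieces of 1 transcript was not tested, since the table holds no lengths or bases.

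**Figure D2:**
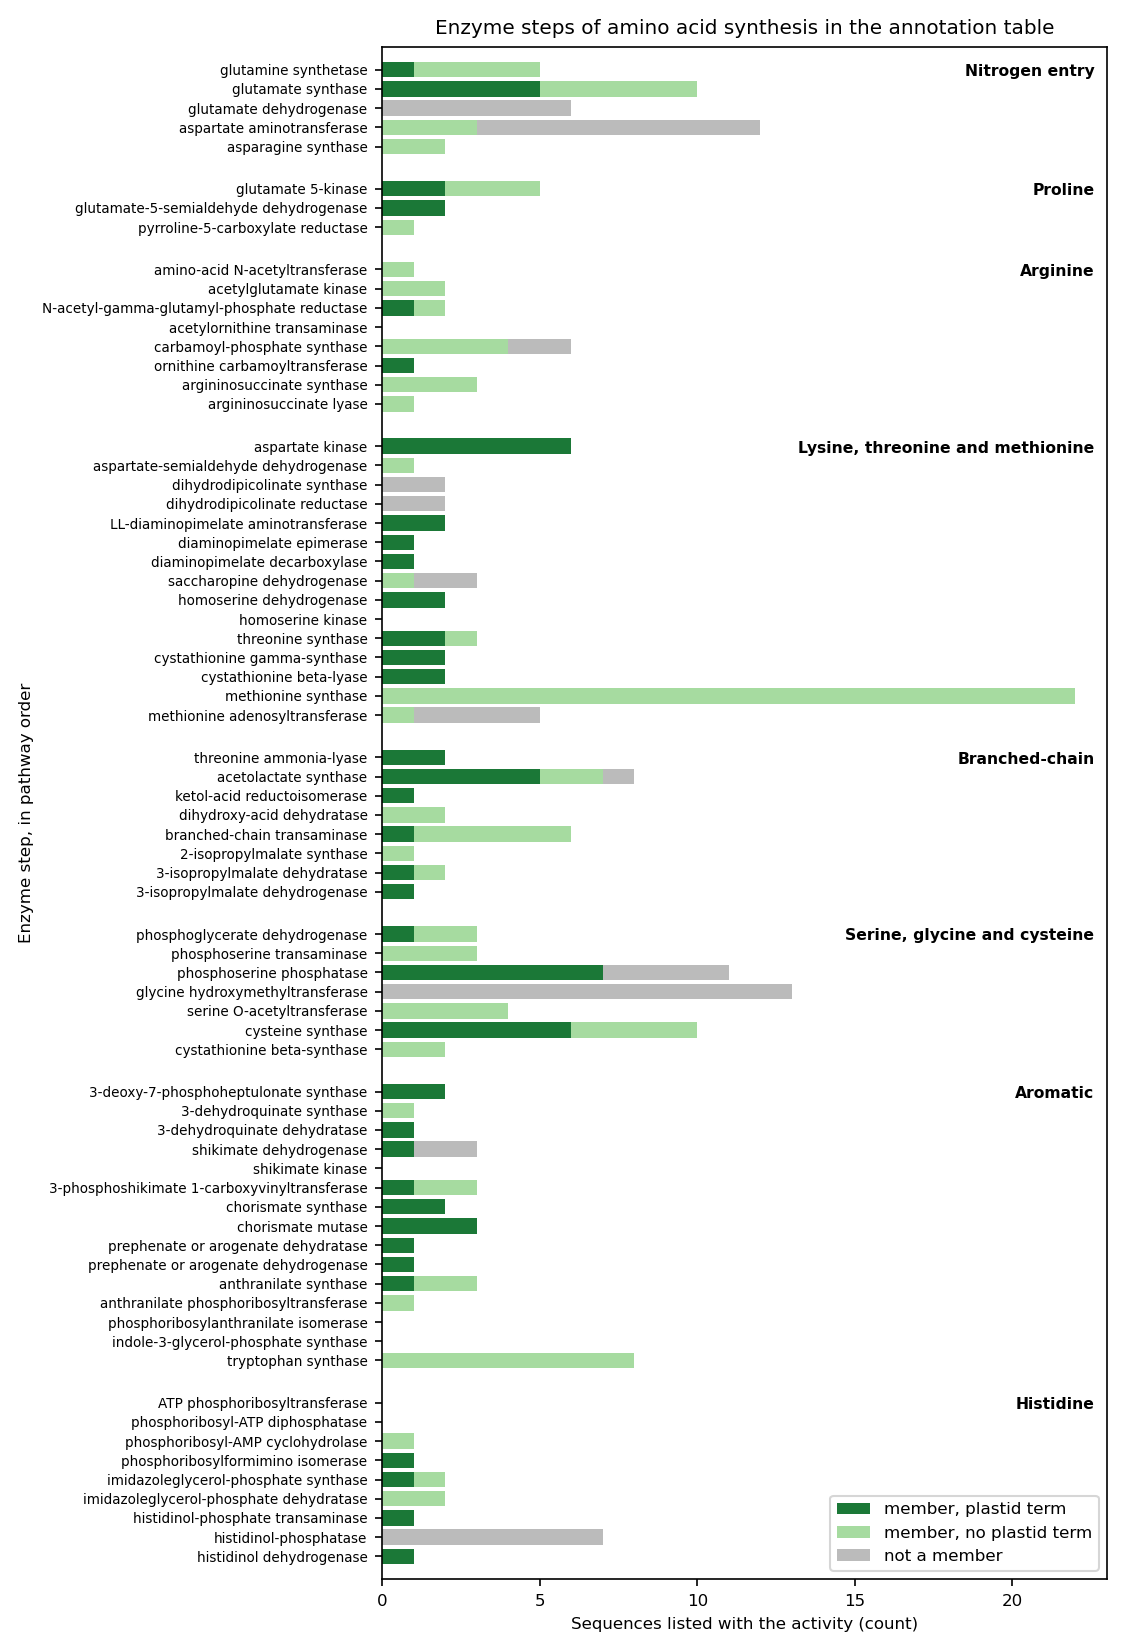
Number of sequences listed with each enzyme step (horizontal axis, count), with steps in pathway order down the page, split into amino acid biosynthesis sequences with and without a plastid term and sequences that list the step but no amino acid biosynthesis term. Methionine synthase is the longest bar with 22 sequences, 0 of them with a plastid term, and glycine hydroxymethyltransferase (13 sequences) lies outside the chosen set altogether.

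Nitrogen entry was covered at 4 of 5 steps. Glutamine synthetase, which joins ammonium to glutamate, was listed for 5 sequences in 5 components, for example comp904393_c0_seq1_8. Of these, 1 listed chloroplast (comp61373_c1_seq1_22) and 4 listed cytoplasm, and 3 of the cytoplasm sequences also listed nitrogen fixation. Glutamate synthase, which passes the amide nitrogen of glutamine to 2-oxoglutarate, was listed for 10 sequences in 9 components, for example comp65716_c1_seq1_9. The ferredoxin-dependent form was on 6 sequences, 5 of them with plastid terms, and the NADH-dependent form on 4 sequences in 3 components, all with amyloplast as their component term. All 10 listed binding of a 3 iron, 4 sulfur cluster. Photorespiration, the recycling of the product of oxygenation by Rubisco, was listed for 2 of the ferredoxin sequences.

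Aspartate aminotransferase was on 12 sequences of the table, of which 3 carried aspartate biosynthetic process, with mitochondrial terms on all 3 (example comp993870_c0_seq1_4). The other 9 listed aspartate metabolic process in its place. Asparagine synthase (glutamine-hydrolyzing) was on 2 sequences, for example comp64390_c0_seq1_14. Glutamate dehydrogenase was listed for 6 sequences, 0 of which listed an amino acid biosynthesis term.

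All 3 steps from glutamate to proline were present. Both glutamate 5-kinase and glutamate-5-semialdehyde dehydrogenase stood on comp61368_c0_seq2_38 and comp61368_c0_seq3_42, with chloroplast as the component term, and in plants these activities are joined in the enzyme known as P5C synthetase. Glutamate 5-kinase without the dehydrogenase was listed for 3 further sequences, all with cytoplasm. Pyrroline-5-carboxylate reductase, the last step, was on comp59079_c0_seq1_22 alone.

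In the arginine pathway 7 of 8 steps had a sequence by the listed words. Glutamate N-acetyltransferase was on comp59044_c0_seq1_29, which listed both the acetyl-CoA-dependent activity and the transfer from acetylornithine. Acetylglutamate kinase was on 2 sequences, comp57840_c0_seq1_9 and comp1331356_c0_seq1_2, both of which listed glutamate 5-kinase and the proline term as well. N-acetyl-gamma-glutamyl-phosphate reductase was on 2 sequences, comp62522_c3_seq1_9 with chloroplast and another with cytoplasm. The step missing by name, acetylornithine transaminase, was found after the values were seen under the name N2-acetyl-L-ornithine:2-oxoglutarate 5-aminotransferase activity, on 2 sequences.

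Ornithine carbamoyltransferase (comp54825_c0_seq2_7, chloroplast) and argininosuccinate lyase (comp58860_c0_seq2_41, with no component term) had 1 sequence each, and argininosuccinate synthase had 3, all with cytoplasm (example comp500309_c0_seq1_3). Carbamoyl-phosphate synthase, which supplies both arginine and pyrimidines, was on 4 arginine sequences in 3 components (example comp63591_c0_seq2_8), all of which also listed pyrimidine nucleotide biosynthetic process. Acetylornithine deacetylase, which releases ornithine in bacteria, was not on the list of steps and was on 7 arginine sequences in 6 components. All 7 listed phagocytic vesicle as their component term.

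For the pathways from aspartate to lysine, threonine and methionine, 12 of 15 steps had a sequence. Aspartate kinase, the first enzyme, was on 6 sequences in 3 components, all with plastid terms. The component comp64786_c0 held 4 of the 6. Homoserine dehydrogenase stood together with aspartate kinase on the other 2, comp60760_c0_seq1_62 and comp60771_c0_seq1_12, and plants are known to hold an enzyme with both activities. All 6 also listed amino acid binding. Aspartate-semialdehyde dehydrogenase was on 1 sequence, comp56274_c0_seq1_11, which carried both the methionine and the threonine term and diaminopimelate biosynthetic process.

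The diaminopimelate route, by which plants make lysine, was listed on 8 sequences of the table. L,L-diaminopimelate aminotransferase was on comp65286_c0_seq1_9 and comp1219040_c0_seq1_1, diaminopimelate epimerase on comp59818_c0_seq2_10 and diaminopimelate decarboxylase on comp59086_c0_seq1_13, and these 4 sequences all had plastid terms. Both sequences with the aminotransferase also listed systemic acquired resistance, salicylic acid mediated signaling pathway. They were the only 2 of the 207 (0.966%) with a term naming SA or JA. Such terms were on 3 of the other sequences with a biosynthetic process term (0.448%) and on 15 of all annotated sequences (0.220%). These shares rest on few sequences, and the difference was not tested. Dihydrodipicolinate synthase and dihydrodipicolinate reductase were on 2 sequences each, which listed diaminopimelate biosynthetic process but no amino acid name.

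The aminoadipate route to lysine, known from fungi, was listed as well. Homocitrate synthase was on comp927114_c0_seq1_2 and comp419386_c0_seq1_10, homoisocitrate dehydrogenase on comp1163933_c0_seq1_1 and saccharopine dehydrogenase on comp1325325_c0_seq1_4. These 4 sequences carried lysine biosynthetic terms, 0 of them a plastid term and 2 mitochondrion. A further 2 sequences with saccharopine dehydrogenase listed L-lysine catabolic process, and this enzyme also takes part in lysine breakdown.

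Threonine synthase was on 3 sequences in 2 components, 2 with chloroplast and 1, comp630880_c0_seq1_4, with cytosol and nucleus. Homoserine kinase was listed for 0 sequences of the table. Cystathionine gamma-synthase (comp62430_c0_seq4_12) and cystathionine beta-lyase (comp64136_c1_seq3_56), which carry sulfur from cysteine to homocysteine, had 2 sequences in 1 component each, all with chloroplast and pyridoxal phosphate binding. Methionine adenosyltransferase, which makes S-adenosylmethionine, was on 5 sequences, of which comp220793_c0_seq1_8 alone carried a biosynthetic term of the chosen kind.

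Methionine synthase, which adds the methyl group to homocysteine, had the most sequences of all 58 steps, 22 in 21 components. The cobalamin-dependent form made up 20 of them in 19 components, and each of the 20 listed methionine synthase, homocysteine S-methyltransferase and dihydropteroate synthase activities with cobalamin and zinc ion binding. The example by number of terms is comp63796_c0_seq1_15. The cobalamin-independent form was listed for 2 sequences, comp44915_c0_seq1_23 and comp81221_c0_seq1_2, with zinc ion binding. The green alga *Chlamydomonas reinhardtii* is known to hold both forms. Of the 22 sequences, 13 had intracellular as their component term, 7 had cytosol or cytoplasm, 2 had none and 0 had a plastid term.

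All 8 branched-chain steps were present, on 22 sequences in 20 components. L-threonine ammonia-lyase, the entry to isoleucine, was on 2 sequences of 1 component (comp63431_c0_seq10_15) with chloroplast. Acetolactate synthase, the first enzyme shared by valine, leucine and isoleucine and the target of several herbicides, was on 7 sequences in 6 components. Of these, 4 listed FAD, magnesium and thiamin pyrophosphate binding with chloroplast and response to herbicide (example comp63795_c2_seq1_33). The other 3 listed amino acid binding without these cofactors, for example comp1010434_c0_seq1_1. In plants and bacteria acetolactate synthase has a catalytic subunit, which holds the cofactors, and a regulatory subunit, which binds valine or leucine.

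Ketol-acid reductoisomerase was on comp62322_c0_seq1_46, with chloroplast. Dihydroxy-acid dehydratase was on comp55437_c0_seq1_8 and comp55437_c1_seq1_26, both with 4 iron, 4 sulfur cluster binding and with both the isoleucine and the valine term. The branched-chain transaminase had 6 sequences in 6 components, 1 with chloroplast (comp56691_c0_seq1_43), 2 with cytosol or cytoplasm (example comp890927_c0_seq1_3) and 3 with no component term. The leucine branch consisted of 2-isopropylmalate synthase (comp59697_c0_seq1_47), 3-isopropylmalate dehydratase on 2 sequences (example comp64762_c0_seq2_10) and 3-isopropylmalate dehydrogenase (comp50233_c0_seq1_28).

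In the serine, glycine and cysteine pathways 6 of 7 steps had a sequence. The phosphorylated route to serine comprised phosphoglycerate dehydrogenase on 3 sequences in 3 components (example comp699187_c0_seq1_1), phosphoserine transaminase on 3 in 3 (example comp656717_c0_seq1_2) and phosphoserine phosphatase on 7. All 7 phosphatase sequences, for example comp59957_c0_seq10_18, were of 1 component, comp59957_c0, which was the component with the most sequences of the whole set, and all listed chloroplast. Another 4 sequences with phosphoserine phosphatase listed protein transport and no serine term. Glycine hydroxymethyltransferase, which interconverts serine and glycine, was on 13 sequences, and all 13 listed glycine and L-serine metabolic process rather than a biosynthetic term.

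Serine O-acetyltransferase, which activates serine, was on 4 sequences in 3 components, all with cytosol or cytoplasm (example comp56086_c0_seq7_31). Cysteine synthase, which puts sulfide onto O-acetylserine, was on 10 sequences in 9 components. Plastid terms were on 6 of the 10, with chromoplast on 5 of those and mitochondrion on 2 (example comp1400609_c0_seq1_6), and the other 4 listed cytoplasm. Cystathionine beta-synthase, which opens the route from homocysteine to cysteine known from animals and fungi, was on comp400519_c0_seq1_5 and comp695946_c0_seq1_5, both with cytoplasm.

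The aromatic pathway had a sequence at 12 of 15 steps. Of the shikimate pathway, which leads to chorismate, 6 of 7 steps were found. These were 3-deoxy-7-phosphoheptulonate synthase on 2 sequences (example comp65188_c0_seq5_18, chloroplast), 3-dehydroquinate synthase (comp55793_c0_seq1_8, cytoplasm), 3-dehydroquinate dehydratase joined with shikimate dehydrogenase (comp61229_c0_seq1_22, chloroplast stroma), 3-phosphoshikimate 1-carboxyvinyltransferase on 3 (example comp59744_c0_seq1_16) and chorismate synthase on 2 of 1 component (example comp63390_c0_seq6_12). Plants are known to join the dehydratase and the dehydrogenase in 1 enzyme. Shikimate kinase was listed for 0 sequences. Shikimate dehydrogenase was on 2 more sequences, which listed chlorophyll biosynthetic process and no amino acid.

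Past chorismate, chorismate mutase was on 3 sequences of 1 component with both chloroplast and cytosol (example comp61201_c0_seq2_36). A single sequence, comp57355_c0_seq1_32, listed both arogenate and prephenate dehydratase for phenylalanine, and comp61468_c1_seq1_38 listed both dehydrogenases for tyrosine. In the tryptophan branch, anthranilate synthase was on 3 sequences (example comp63128_c0_seq1_38), and comp57992_c0_seq1_20 listed anthranilate phosphoribosyltransferase as well. Tryptophan synthase had 8 sequences in 8 components (example comp60510_c0_seq1_13), of which 6 listed pyridoxal phosphate binding, the cofactor of its beta subunit, and 2 did not. None of these 8 listed a component term. Phosphoribosylanthranilate isomerase and indole-3-glycerol-phosphate synthase were listed for 0 sequences.

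Histidine had a sequence at 6 of 9 steps, 4 of them on 1 sequence. These 4 were phosphoribosyl-AMP cyclohydrolase (comp995190_c0_seq1_2), the isomerase that follows it (comp53930_c0_seq1_21), histidinol-phosphate transaminase (comp59571_c1_seq1_46) and histidinol dehydrogenase (comp56045_c0_seq1_13). Imidazoleglycerol-phosphate synthase (example comp1701580_c0_seq1_4) and imidazoleglycerol-phosphate dehydratase (example comp1983007_c0_seq1_2) had 2 each. ATP phosphoribosyltransferase and phosphoribosyl-ATP diphosphatase, the opening steps, were listed for 0 sequences. Histidinol-phosphatase was on 7 sequences of the component comp62695_c1, which listed no process term at all. The enzyme steps thus rested on 8 of the 19 histidine sequences, and of the remaining 11, 9 were folate enzymes and 2 diphthine synthase.

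The 43 sequences with none of the 70 steps held both enzymes that feed the pathways and pathway enzymes that the list of steps did not name. Among the latter, acetylornithine deacetylase was on 7, homocitrate synthase or homoisocitrate dehydrogenase on 3 and acetylornithine aminotransferase on 2. Methylenetetrahydrofolate dehydrogenase with methenyltetrahydrofolate cyclohydrolase, which interconvert the carriers of single carbon units, was on 9 sequences in 7 components, and all 9 carried the histidine and methionine terms together. Of the sequences with 2 biosynthetic terms of the set, the 4 with the most GO terms were folate enzymes of this kind. These are comp1158961_c0_seq1_2 and comp1569568_c0_seq1_3 with 14 GO terms each, comp61161_c0_seq1_26 with 13 and comp814260_c0_seq1_2 with 11. They were followed by 6 sequences tied at 9 terms, among them comp56274_c0_seq1_11. Cystathionine gamma-lyase was on 5 sequences in 5 components, all with cytoplasm. Adenylylsulfate kinase or adenylyl-sulfate reductase, enzymes of sulfate assimilation, stood on 4 sequences with cysteine terms, 3 of them with plastid terms. Citrate synthase and isocitrate dehydrogenase were on 1 sequence each with glutamate biosynthetic process and a mitochondrial term.

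Counting the other way, 218 sequences of the table listed at least 1 of the 70 steps, and 164 of them (75.2%) were amino acid biosynthesis sequences. The share was 100% for proline (6 of 6), 95.7% for branched-chain steps (22 of 23) and 92.6% for aromatic steps (25 of 27). It was lowest for histidine, 53.3% (8 of 15), and for nitrogen entry, 57.1% (20 of 35). The 54 sequences outside the set were mainly those of glycine hydroxymethyltransferase (13), aspartate aminotransferase (9), histidinol-phosphatase (7) and glutamate dehydrogenase (6).

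The cellular component terms played no part in the choice. They came from Blastp hits through GoPipe like the biosynthetic terms, so the shares below are not independent evidence of location. Plastid terms (a name with chloroplast, plastid or thylakoid) were listed for 71 of the 207 sequences (34.3%), against 150 of the 670 other sequences with a biosynthetic process term (22.4%) and 738 of all 6812 (10.8%). Mitochondrial terms were on 14 amino acid biosynthesis sequences (6.76%), against 11.5% of the other biosynthetic sequences and 11.3% of all. Membrane terms were on 6 (2.90%), against 29.7% and 21.3%, and nuclear terms on 6 (2.90%), against 5.22% and 17.4%. No test was made between these sets, because sequences of 1 table are not independent replicates.

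By single terms, chloroplast was listed for 53 of the 207 sequences, cytoplasm for 47, chloroplast stroma for 18, intracellular for 13, cytosol for 12 and mitochondrion for 8. Phagocytic vesicle followed with 7, nucleus with 6, and chloroplast envelope, chromoplast and mitochondrial matrix with 5 each. Plastid and mitochondrial terms stood together on 4 sequences, and 47 listed no component term. Of the 9 chromoplast sequences in the table, 5 were in the set, all of them cysteine synthase.

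These terms were unevenly spread over the families, a difference that was likewise not tested. Plastid terms were on 11 of 22 branched-chain sequences (50.0%), 12 of 26 aromatic (46.2%) and 20 of 45 serine family sequences (44.4%, or 18 of 43 and 41.9% without the match to homoserine). These shares count sequences, and shares per component were not computed for the families. Of the 20 serine family sequences, 7 were of 1 component, comp59957_c0, with the same terms. Plastid terms were on 16 of 61 aspartate family sequences (26.2%), 10 of 45 in the glutamate family (22.2%) and 4 of 19 for histidine (21.1%). Of the 16 in the aspartate family, 6 were aspartate kinase sequences in 3 components. The glutamate family count leaves out 4 glutamate synthase sequences with amyloplast, which the words for plastid terms did not match. Mitochondrial terms were on 6 sequences each of the glutamate and aspartate families, on 2 of the serine family, on 1 for histidine and on 0 of the branched-chain and aromatic families. By step, 36 of the 58 had at least 1 plastid sequence, and at 23 all the sequences of the set listed a plastid term. Most of these 23 steps rest on 1 component each, such as phosphoserine phosphatase (7 sequences) and chorismate mutase (3 sequences). Plastid sequences stood beside cytosol or cytoplasm sequences at 8 steps, among them glutamine synthetase (1 and 4), threonine synthase (2 and 1) and cysteine synthase (6 and 4).

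The molecular functions named the cofactors. Pyridoxal phosphate is the vitamin B6 cofactor of transaminases and of many lyases and synthases of amino acids. The term pyridoxal phosphate binding was listed for 43 of the 207 sequences (20.8%), against 5.07% of the other biosynthetic sequences and 2.01% of all. These 43 are 31.4% of the 137 sequences with the term in the table. It was on 22 of 45 serine family sequences (48.9%, or 20 of 43 and 46.5% without the match to homoserine), 6 of 26 aromatic (23.1%) and 12 of 61 aspartate family sequences (19.7%). It was on 2 of 22 branched-chain sequences (9.09%), 1 of 19 for histidine (5.26%) and 2 of 45 in the glutamate family (4.44%). The 2 branched-chain sequences were L-threonine ammonia-lyase, and the 6 branched-chain transaminase sequences did not list the term. A low share can therefore reflect terms missing from the annotation. The next most frequent terms were ATP binding with 35 sequences (16.9%, against 31.9% of the other biosynthetic sequences and 28.1% of all), protein binding with 25 and zinc ion binding with 24. Cobalamin binding, dihydropteroate synthase, homocysteine S-methyltransferase, methionine synthase and metal ion binding had 20 each, and amino acid binding had 12.

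Of the 15 sequences of the table with amino acid binding, 12 were in the set. Of the 12, 6 were aspartate kinase and 3 acetolactate synthase, and ornithine carbamoyltransferase, phosphoglycerate dehydrogenase and prephenate dehydratase had 1 each. Iron-sulfur binding was on 14 sequences (6.76%, against 2.99% of the other biosynthetic sequences and 2.55% of all), 10 of them glutamate synthase. In all the 207 sequences listed 119 molecular function terms, and 75 of these were on no other sequence of the table. Many of the 75 were on a single sequence and so could not be shared. Many others name the pathway enzymes themselves and came from the same Blastp hits as the biosynthetic terms. The same count was not made for other sets of sequences.

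**Figure D3:**
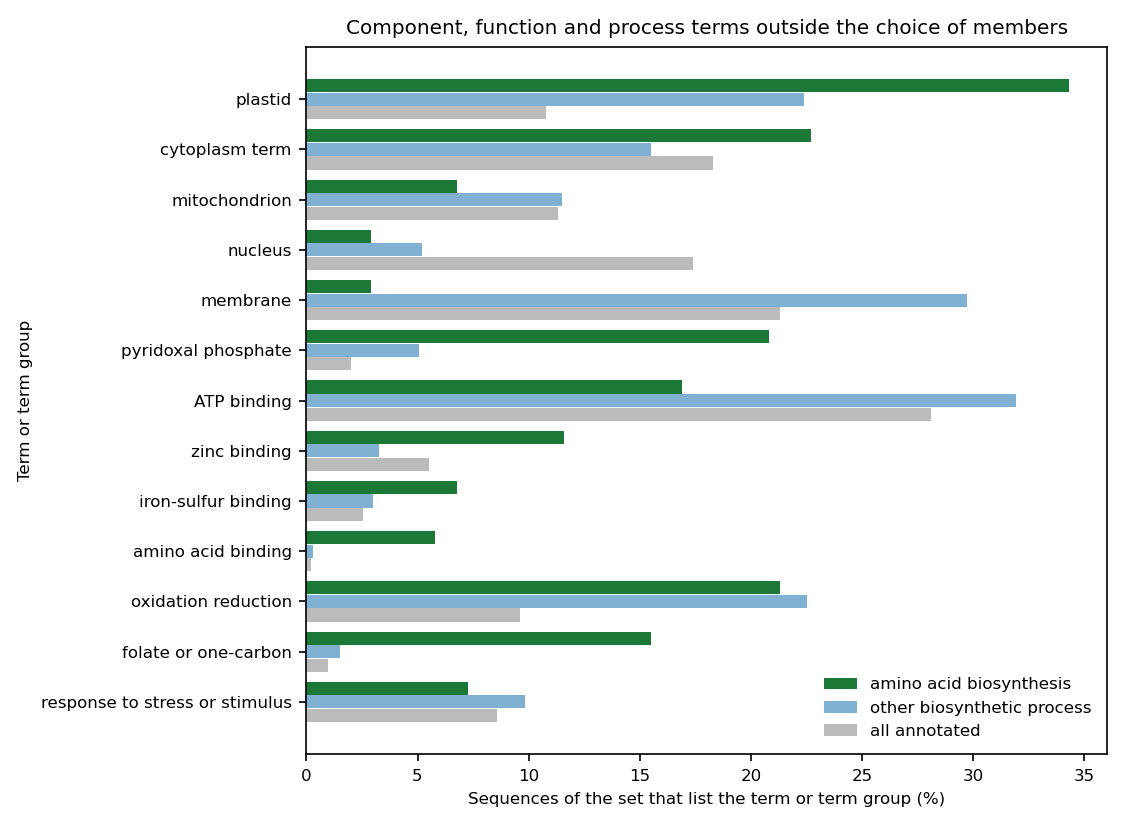
Share of sequences (horizontal axis, %) that list each component, function or process term or term group, for the 207 amino acid biosynthesis sequences, the 670 other sequences with a biosynthetic process term and all 6812 annotated sequences. Pyridoxal phosphate binding stood at 20.8%, 5.07% and 2.01% in that order, and membrane terms at 2.90%, 29.7% and 21.3%.

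Among other process terms, oxidation reduction was listed for 44 of the 207 sequences (21.3%, against 22.5% of the other biosynthetic sequences and 9.59% of all). Folic acid and derivative biosynthetic process followed with 28 sequences, 20 of them cobalamin-dependent methionine synthase, then glutamine metabolic process with 20, one-carbon metabolic process with 12 and purine nucleotide biosynthetic process with 9. Pyrimidine nucleotide biosynthetic process, response to herbicide and sulfate assimilation had 4 each. A further 12 process terms were tied at 3 sequences each, among them aspartate catabolic process and embryonic development ending in seed dormancy. Terms that name a response to stress or to a stimulus were on 15 sequences (7.25%, against 9.85% of the other biosynthetic sequences and 8.57% of all). Response to cadmium ion was on 2 (0.966%, against 3.58% of the other biosynthetic sequences and 1.53% of all). Response to salt was on 1 (0.483%, against 0.149% and 0.484%). Isoprenoid or carotenoid terms were on 0, against 7.76% and 0.763%, and tetrapyrrole or chlorophyll terms on 0, against 9.40% and 1.01%. These differences were not tested.

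The number of terms per sequence was counted as well. The 207 sequences had a median of 5 GO terms with quartiles of 4 and 7, against 6 (4 and 8) for the other biosynthetic sequences and 5 (4 and 7) for all. By family, the median was 8 for aspartate, 7 for histidine, 5 for glutamate and serine, 4.5 for branched-chain and 3 for aromatic sequences. Terms of all 3 GO domains were on 160 (77.3%), against 79.0% and 74.5%.

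Several sequences of 1 component repeat an annotation. In 18 components there were 2 or more sequences of the set, 45 in all, and in all 18 every such sequence listed exactly the same GO terms. The largest were comp59957_c0 with 7 and comp64786_c0 with 4, followed by comp60550_c0 (a folate enzyme) and comp61201_c0 (chorismate mutase) with 3 each. The other 162 components had 1 sequence of the set each.

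The component numbers of the assembly run in a lower range and a range above 100000, and the terms were unevenly spread over both. Of the 207 sequences, 94 (45.4%) lay above 100000 and 113 below, against 50.3% above among all 6812. Plastid terms were on 12 of the 94 above (12.8%) and 59 of the 113 below (52.2%). Among the sequences outside the set they were on 5.64% above and 14.6% below. Mitochondrial terms were on 11 of 94 above (11.7%) and 3 of 113 below (2.65%), against 13.0% and 9.85% outside the set. The term cytoplasm was on 32 above (34.0%) and 15 below (13.3%), against 19.9% and 16.5%. The median of the last number of the identifier was 3 above and 21.0 below for the set, against 3 and 13.0 outside it. The part of this number in these shares was not tested.

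**Figure D4:**
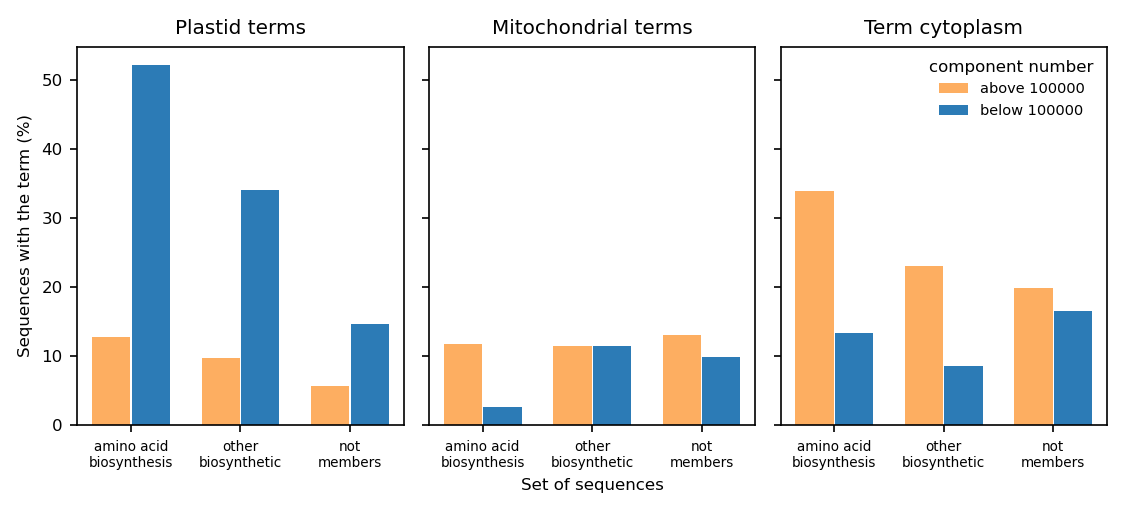
Share of sequences (vertical axis, %) with plastid terms, mitochondrial terms or the term cytoplasm, above and below component number 100000, for amino acid biosynthesis sequences, other sequences with a biosynthetic process term and all sequences outside the set (not members). Plastid terms were on 12.8% of amino acid biosynthesis sequences above and 52.2% below, and on 5.64% and 14.6% outside the set.

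Of the 58 steps with a sequence, 23 had sequences on both sides of this number, 30 only below and 5 only above. A component has a single number, so the 29 steps with all their sequences in 1 component could lie on 1 side only. Those 29 are all among the steps found only below or only above. The 5 found only above were phosphoserine transaminase (3 sequences), cystathionine beta-synthase (2), saccharopine dehydrogenase, methionine adenosyltransferase and phosphoribosyl-AMP cyclohydrolase (1 each). Among the larger steps, methionine synthase had 15 sequences above and 7 below, the branched-chain transaminase 5 and 1, and tryptophan synthase 5 and 3. Aspartate kinase had 0 above and 6 below, serine O-acetyltransferase 0 and 4, and glutamate synthase 3 and 7. All 4 sequences of the aminoadipate route and all 5 of cystathionine gamma-lyase lay above 100000, as did 1 of the 4 of the diaminopimelate route. Any of the 70 steps was listed for 65 of 94 sequences above (69.1%) and 99 of 113 below (87.6%).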

How the data were processed

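RNA of 7 cultures of *H. pluvialis* was sequenced as paired ends on the Illumina HiSeq2000. After read filtering, the authors made contigs with Trinity, translated them with GetORF, and took GO terms from Blastp hits through GoPipe. The deposited table holds text in 4 columns (sequence, GO identifier, term name and domain), with 39529 lines and 0 columns of values per sample, so depth and expression were not used here.

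Sequences were counted by identifier, and a term counted only where the table itself lists it. Members, word lists, enzyme steps and the boundary at component number 100000 were chosen with earlier results of these data known. Named in the text are all enzyme steps, each with the sequence that has the most terms as its example, all biosynthetic terms of the set, the 10 most frequent other terms of each domain, the 5 sequences with the most biosynthetic and other terms and the 3 largest components, with ties stated where they occur. Sequences named beside these were chosen after their terms were seen. The word rule was tested on names with known answers, and the words for the enzyme steps were not. No test between groups was made. Alternative counts were compared at a limit of 1.5 times. A reference table of 30548 genes (assembly ASM3014472v1) matched 0 identifiers. Python 3.11.15 and Matplotlib 3.10.9 were used.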

Additional observations from a re-analysis of the deposited data

How the results depend on the processing

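Of 31 alternative counts for 13 results, 29 lay within 1.5 times of the reported count. The number of enzyme steps with a sequence was 29 rather than 58 when sequences of 2 or more Trinity components were required, because steps on 1 component are then left out. The number with a mitochondrial term was 8 rather than 14 when the term mitochondrion alone was counted, since names such as mitochondrial matrix are left out. The set itself numbered 180 with 1 count per component, 201 with strict names and 294 with metabolic process names added. Plastid terms were on 53 with the term chloroplast alone. Adding chromoplast and amyloplast (75 sequences) and the full name of acetylornithine aminotransferase (59 steps), and leaving homoserine out of the match to serine (43 serine family sequences, 10 sequences with terms of 2 families), were chosen after seeing the data. No paired analysis was possible because no value belongs to a single library. Sequencing depth limits which contigs are assembled, and its part in these counts was not tested.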

Other observations

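Some amino acid biosynthesis sequences listed terms that name animal organs or cells. Both phosphoglycerate dehydrogenase sequences above component number 100000, comp699187_c0_seq1_1 and comp1200377_c0_seq1_1, listed spinal cord development and glial cell development, and 2 methionine synthase sequences, comp63796_c0_seq1_15 and comp731451_c0_seq1_2, listed nervous system development. A word list for such terms and for phagocytic vesicle, written after the values were seen, matched 14 of the 207 sequences (6.76%). Of these, 7 matched through phagocytic vesicle alone. The list matched 6.49% of all annotated sequences, and phagocytic vesicle was on 3.38% of the set against 1.19% of all. The share of all sequences without the vesicle term was not computed. Of the 14, 11 lay above component number 100000.

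A total of 8 sequences listed 2 of the enzyme steps. They were 2 with glutamate 5-kinase and glutamate-5-semialdehyde dehydrogenase, 2 with glutamate 5-kinase and acetylglutamate kinase, 2 with aspartate kinase and homoserine dehydrogenase, 1 with 3-dehydroquinate dehydratase and shikimate dehydrogenase, and 1 with anthranilate synthase and anthranilate phosphoribosyltransferase.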
